A study of Mus musculus with 16 samples.

Results

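The response of old muscle fibres to voluntary running was examined in 8 of the 16 libraries of the series, and 9379 of 19588 genes listed for these libraries were tested. Each library held RNA of myofibres from a fast hindlimb muscle, the extensor digitorum longus, and the fibres had been stripped of adhering mononucleated cells. All libraries came from male C57BL/6 mice, with no other genotype or agent named. Old runners (4 libraries, 22 months) had used a wheel at will for 5 weeks, and old controls (4 libraries, 22 months) had not. Young runners and young controls (4 months, 4 libraries each) served only for the comparison of ages. A gene was tested when its value was at least 1 above the lowest value of the table (7.69) in at least 4 of the 8 libraries. Whether each library is a separate animal is not stated in the labels, and a p-value below therefore speaks only of the spread among libraries, which may be technical.

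A muscle fibre is a single cell with many nuclei, packed with sarcomeres whose actin and myosin filaments slide when calcium leaves the sarcoplasmic reticulum. Calcium also acts on kinases and on the phosphatase calcineurin, which pass the pattern of contraction on to transcription factors such as MEF2 and the CAMTA proteins. Contraction, injury and isolation of fibres from the muscle are all known to switch on immediate early genes such as Fos, Egr1 and Zfp36 within minutes. In rodent limb muscle the fast fibres carry the myosin heavy chains of Myh4, Myh1 and Myh2, in order of rising oxidative capacity.

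Libraries held 30.7 to 67.4 M assigned reads (M, 1e6), and the runner library O1ex had the lowest depth. The label of muscle fibre held: 22 of 22 muscle identity genes were tested and took 17.3% to 26.8% of reads. Mitochondrially encoded genes took 0.64% to 0.94% of reads in the 8 libraries. The control library Oc1 stood apart. It had the fewest genes with a read (12630), and its mean correlation across genes was 0.937 with the other controls and 0.946 with the runners. On the second principal component it sat at -39.4, while the other 7 libraries lay between 1.69 and 13.9. Results are therefore given with and without it. The controls were also more variable. The median SD between libraries was 0.197 (log2) in runners and 0.267 in controls, 0.224 without Oc1, and 67.5% of tested genes had the larger SD in controls.

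**Figure D1:**
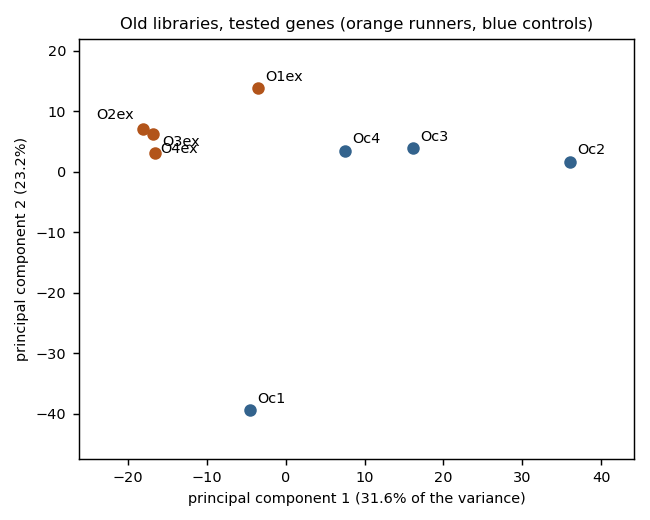
Position of the 8 old libraries on the first 2 principal components of the tested genes (31.6% and 23.2% of the variance), with each point a library, runners in orange and controls in blue. The runners O2ex, O3ex and O4ex lie together, O1ex (-3.49) and Oc1 (-4.59) lie close on the first axis, between those runners and the other 3 controls, and Oc1 lies far from all others on the second.

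In old fibres 12 genes changed with running at a limma adjusted p under 0.05, 7 higher and 5 lower in runners. These are 0.128% of the genes tested. The 5 that fell were Zfp36, Ier2, Gadd45b, Fos and Rsrp1, and the 7 that rose were Canx, Il1r1, Tsc2, Hipk2, Camta2, Vps8 and Col20a1. Il1r1 and Col20a1 reached the level of the filter in runners only, which fixed their direction. Before adjustment, 1628 genes had a p under 0.05 (968 higher and 660 lower), where 5% of the genes tested is 469. In 952 genes the libraries of the groups did not overlap (456 higher and 496 lower), which is 10.2% of the genes tested. The median difference over all tested genes was 0.03, with 5140 genes higher and 4239 lower in runners. A difference is the mean of runners minus the mean of controls on the deposited log2 scale, which compresses genes with few reads.

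The number of calls rested on single libraries. Without Oc1, 295 of 9235 genes passed (3.19%), 238 higher and 57 lower, and the 12 were all among them. Without O1ex, O2ex, O3ex or O4ex the count was 5, 1, 5 and 4, and 4, 1, 4 and 3 of the 12 remained. Without Oc2, Oc3 or Oc4 it was 1, 4 and 1, and 1, 2 and 1 of the 12 remained. Zfp36 was past the threshold in each of these fits.

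Of the 5 genes that fell, Zfp36, Ier2, Gadd45b and Fos belong to the lists of early response genes. Zfp36 (chr7:28376784-28380253, minus strand) encodes tristetraprolin, which binds AU-rich elements and speeds the decay of cytokine and early gene mRNAs. It had 9379, 8174, 9203 and 9645 normalised reads (recovered read counts scaled by library size factors) in runners O1ex to O4ex, and 27339, 31246, 23104 and 21758 in controls Oc1 to Oc4. All 4 runners were far below all 4 controls, and the runners were close to each other. Positions of genes are those of GENCODE M21 on mm10 and span exons and introns. The difference was -1.45 (SE 0.14, limma adjusted p = 0.00539), and -1.42 without Oc1 (limma adjusted p = 0.00797).

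Fos (chr12:85473890-85477273, plus strand) encodes a subunit of the AP-1 transcription factor. Its normalised reads were 30449, 36410.4, 46376 and 58229 in runners, against 98101, 131415, 98449 and 98129 in controls. The groups did not overlap, Oc2 was the highest, and the other 3 controls were nearly equal. The difference was -1.34 (SE 0.20, limma adjusted p = 0.0458). Ier2 (chr8:84661331-84662852, minus strand), a nuclear early response protein, had 21777, 22418, 26744 and 27636 normalised reads in runners and 52429.7, 55439, 64491 and 50629.7 in controls, again without overlap. The difference of Ier2 was -1.17 (SE 0.14, limma adjusted p = 0.0198).

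Gadd45b (chr10:80930073-80932204, plus strand), a small stress-induced protein that binds kinases of the p38 and JNK pathways, had 4346, 7183, 9065 and 7036 normalised reads in runners. In controls it had 16356, 20027, 17705 and 14676, so that every control lay above every runner. Its difference was -1.30 (SE 0.20, limma adjusted p = 0.0458). Rsrp1 (chr4:134923592-134927671, plus strand) encodes an arginine and serine rich nuclear protein. Its normalised reads were 3534, 7334, 10455 and 6579.8 in runners and 19208, 25731, 22155 and 19993 in controls. The groups were apart, with O1ex the lowest, and the difference was -1.67 (SE 0.26, limma adjusted p = 0.0458).

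The 250 bases before the start of the falling genes are shown as a description. These genes were picked by their direction, so their shared direction is no support for a shared site. The windows are taken from RefSeq on GRCm38.p6, where 11 of the 12 called genes had an entry and Ier2 did not. Each runs 5′ to 3′ on the strand of the gene. Capitals mark the CArG box (the site of serum response factor), TGACG (the core of cAMP response elements) and TATAAA, each searched on both strands, and none of the matches printed overlap. The windows are chr7:28379229-28379478 (minus strand) for Zfp36, chr12:85473640-85473889 (plus) for Fos, chr10:80929841-80930090 (plus) for Gadd45b and chr4:134923375-134923624 (plus) for Rsrp1.
Zfp36: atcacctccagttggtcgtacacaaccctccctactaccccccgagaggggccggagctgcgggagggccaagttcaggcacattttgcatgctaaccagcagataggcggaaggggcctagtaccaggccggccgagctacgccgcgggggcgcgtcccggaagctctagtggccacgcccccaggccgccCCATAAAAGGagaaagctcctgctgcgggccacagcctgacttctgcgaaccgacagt
Fos: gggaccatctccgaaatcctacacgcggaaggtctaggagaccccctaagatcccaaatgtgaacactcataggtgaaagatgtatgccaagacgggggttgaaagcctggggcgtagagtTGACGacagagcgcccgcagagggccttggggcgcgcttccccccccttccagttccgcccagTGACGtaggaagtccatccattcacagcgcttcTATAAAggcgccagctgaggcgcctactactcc
Gadd45b: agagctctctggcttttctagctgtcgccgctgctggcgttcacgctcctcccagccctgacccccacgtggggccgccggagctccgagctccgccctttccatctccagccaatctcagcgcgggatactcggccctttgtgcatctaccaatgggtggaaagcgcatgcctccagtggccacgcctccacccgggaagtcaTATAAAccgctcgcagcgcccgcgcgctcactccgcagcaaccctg
Rsrp1: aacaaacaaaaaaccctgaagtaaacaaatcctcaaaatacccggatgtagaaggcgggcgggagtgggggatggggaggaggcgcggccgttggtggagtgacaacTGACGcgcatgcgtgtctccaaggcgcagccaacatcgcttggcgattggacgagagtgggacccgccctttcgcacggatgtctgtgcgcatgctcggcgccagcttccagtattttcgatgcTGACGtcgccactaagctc
Positions count back from the RefSeq start, which for Zfp36, Gadd45b and Rsrp1 lies inside the GENCODE bounds. A CArG box was present at -58 in Zfp36, and in 1.48% of the 32536 windows of this length that were counted. The count leaves out part of the genome and repeated copies of the same sequence. TATAAA was present at -33 in Fos and -46 in Gadd45b, and in 12.3% of the windows counted. TGACG was present at -129 and -66 in Fos and at -143 and -19 in Rsrp1, and in 17.9% of the windows counted. Of the rising genes, Canx, Il1r1, Camta2 and Vps8 also held TGACG. A match describes letters in the window and not a site in use. Bases outside the windows were not searched, so a gene without a match may have such a site elsewhere.

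The genes that rose had varied roles. Canx (chr11:50293961-50325673, minus strand) encodes calnexin, the lectin chaperone that holds new glycoproteins in the endoplasmic reticulum until they fold. Its normalised reads were 5974, 5895, 5724 and 5827 in runners and 2592, 3420.4, 3104 and 2841 in controls. The runners were nearly equal and all well above the controls. The difference was 0.89 (SE 0.12, limma adjusted p = 0.0302). Canx was the only call among 41 genes of the lectin cycle and folding in that compartment, of which 30 were higher (median 0.12).

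Il1r1 (chr1:40225080-40317257, plus strand) encodes the signalling receptor of interleukin 1. It had 261, 406, 358 and 259.8 normalised reads in runners, and 45.9, 7.71, 4.63 and 1.06 in controls. Every runner was several times above the highest control, Oc1, and the other 3 controls had next to none. The difference was 1.37 (SE 0.18, limma adjusted p = 0.0302) on the compressed scale. Col20a1 (chr2:180986535-181018363, plus strand), a collagen of the FACIT type, had a like pattern, with 209, 191, 265 and 129 normalised reads in runners and 0.936, 5.14, 11.6 and 19.1 in controls. The groups were far apart, and the difference was 1.08 (SE 0.17, limma adjusted p = 0.0491). Both genes were tested only because the runners reached the level of the filter, which no control did. The filter thus fixed their direction and the lack of overlap, so their calls alone are no support for a rise. The reads of the control libraries are so few for both genes that their fold changes are not well fixed.

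Tsc2 (chr17:24595816-24632630, minus strand) encodes tuberin, which with TSC1 holds the growth kinase mTORC1 in check. Its normalised reads were 5495, 5124, 5900.4 and 5982 in runners and 3374, 1960, 2324 and 2569 in controls. Oc1 was the highest control and still below every runner. The difference was 1.05 (SE 0.15, limma adjusted p = 0.0458). Tsc2 overlaps Pkd1 and Hipk2 overlaps Tbxas1 in GENCODE M21, and Zfp36, Il1r1, Col20a1 and Plec overlap other annotated genes. Reads of overlapping genes cannot be told apart in libraries that keep no strand.

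Hipk2 (chr6:38694390-38876165, minus strand), a nuclear kinase of stress and differentiation, and Camta2 (chr11:70669463-70688105, minus strand), a calmodulin-binding transcription activator, are both in the list of calcium-linked regulators. Hipk2 itself is not an enzyme that needs calcium. Hipk2 had 2307, 2343, 2201 and 2507 normalised reads in runners and 1152, 1052, 1055 and 1385 in controls. Both groups were tight and apart, with a difference of 0.83 (SE 0.12, limma adjusted p = 0.0458). Camta2 had 3876, 4261, 2886 and 3746 normalised reads in runners and 2014, 1390.1, 1710 and 1356 in controls. Its groups were apart as well, by 1.03 (SE 0.16, limma adjusted p = 0.0458). Vps8 (chr16:21423118-21644680, plus strand), a subunit of the CORVET complex that tethers early endosomes, had 765, 706, 766 and 704 normalised reads in runners and 108, 177, 329 and 93.3 in controls. The runners were even and the controls scattered, with Oc3 the highest. The difference was 1.18 (SE 0.18, limma adjusted p = 0.0458).

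**Figure D2:**
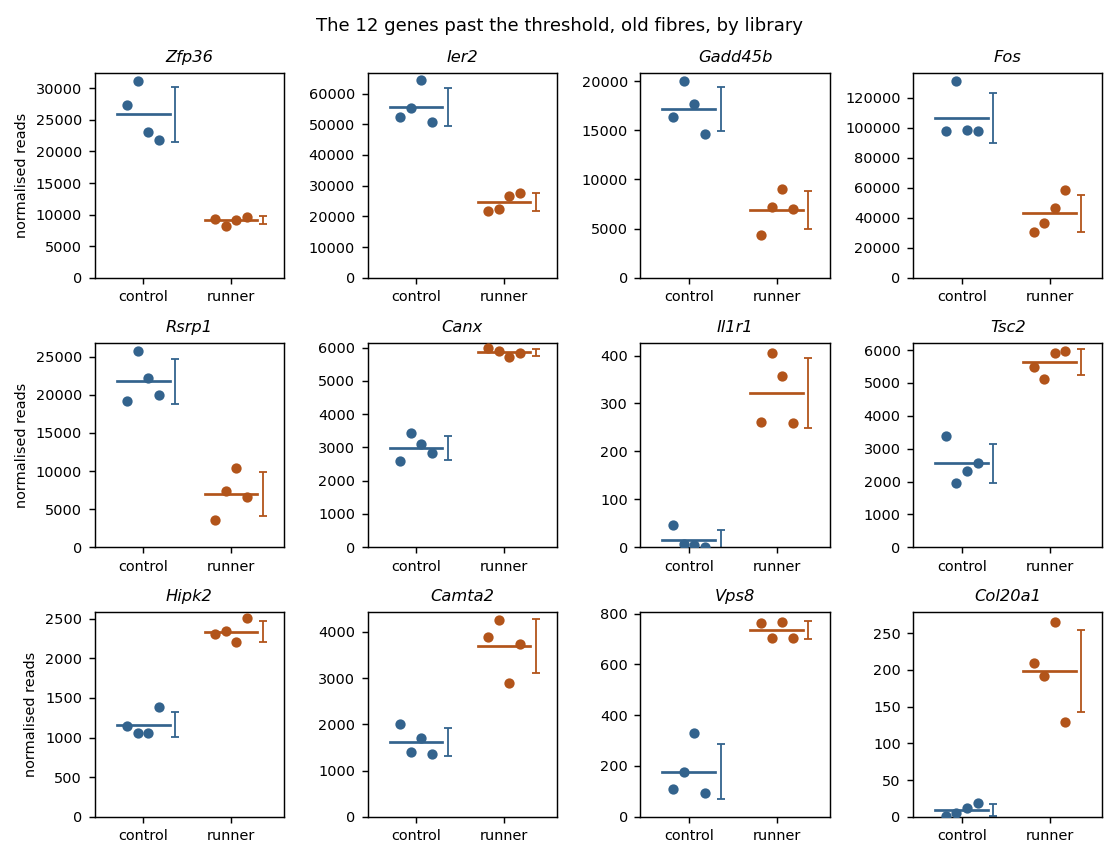
Normalised reads (vertical axes, linear, from 0) of the 12 genes past the threshold, with each point a library of old controls (blue) or old runners (orange), horizontal lines at the mean and bars for the SD (n = 4, cut off at 0). In all 12 genes the libraries of the groups are apart, and the runners of Canx and Vps8 lie closer to each other than the controls do. For Il1r1 and Col20a1 the filter on low values fixes that separation.

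Of 5 lists of early genes, 4 had a median below 0, and the fifth, of MAP kinase phosphatases and Sprouty proteins, did not. The lists hold the called early genes, and the dissociation list repeats members of the others, such as Fos and Zfp36. The lists are therefore not independent of each other or of the calls. Of 24 tested genes that are known to be induced when tissue is dissociated, 23 were lower in runners, 3 passed the threshold (Zfp36, Ier2 and Fos, all lower) and 12 were below every control in every runner. Their median difference was -0.58, against 0.03 over all tested genes, and without Oc1 it was -0.62 with 5 called lower. The median deviation of these genes from their mean was -0.55, -0.38, -0.10 and -0.16 in runners and 0.11, 0.44, 0.31 and 0.42 in controls, so no runner reached a control. O1ex was the lowest and O3ex the highest of the runners. Since this is a list of genes that respond to handling of tissue, it is given beside all early gene results. The part of fibre isolation in these differences was not tested.

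Of 10 tested AP-1 subunits 8 were lower in runners, 1 passed (Fos) and 6 did not overlap, with a median difference of -0.66. Junb, a partner of Fos, had 65038, 72287, 87125 and 92799 normalised reads in runners and 119404, 109442, 120828 and 138404 in controls. The groups were apart, but the difference of -0.63 (SE 0.16) did not pass (limma adjusted p = 0.113). Maff, a small MAF protein, differed by -0.68 (SE 0.19, limma adjusted p = 0.134), also without overlap. Jun, Fosb and Atf3, named after their values were seen, differed by -0.72, -0.74 and -0.86 without passing.

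Of 25 tested early genes of the ZFP36, IER, GADD45 and BTG kind, 20 were lower in runners, 3 passed (Zfp36, Ier2 and Gadd45b) and 7 did not overlap, all lower, with a median of -0.25 (-0.15 without O1ex). Those 7 are 28.0% of the list, against 10.2% of all genes tested. Gadd45g, a relative of Gadd45b, had 5212, 20126, 26386 and 11791 normalised reads in runners and 45263, 61275, 49939 and 46139 in controls. The runners ranged widely, with O1ex lowest, yet stayed below every control (difference -1.86, SE 0.39, limma adjusted p = 0.0888). Among 27 other early transcription factors 21 were lower and none passed. Hes1, a target of Notch, differed by -1.06 (limma adjusted p = 0.132) and Nr4a1, an orphan nuclear receptor, by -0.57 (limma adjusted p = 0.161), both without overlap. Of 14 MAP kinase phosphatases and Sprouty genes, which damp the kinase cascade, 8 were higher and 6 lower, with a median of 0.07 and no call. In that list Dusp1 differed by -0.42 and Spred1 by 0.59, both without overlap, and Dusp5 by 0.83 (limma adjusted p = 0.152, 0.157 and 0.142). Egr1, a zinc finger factor of the same early response, showed no such separation. It had 195084, 213878, 217796 and 242958 normalised reads in runners and 229514, 201188, 224162 and 310469.9 in controls, which overlap (difference -0.14, limma adjusted p = 0.729).

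**Figure D3:**
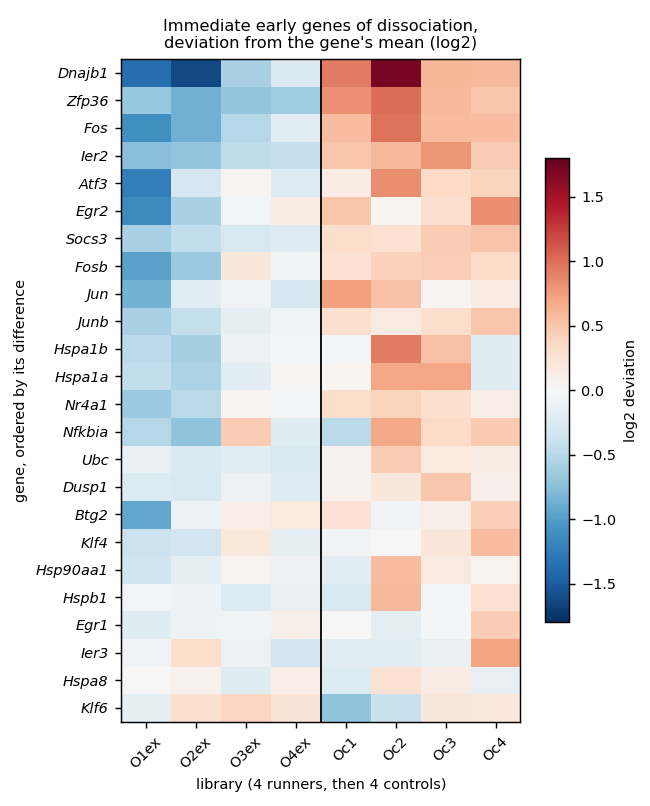
Deviation of each library from the gene's mean over the 8 libraries (log2, colour) for the 24 tested genes known to be induced by dissociation of tissue, with 4 runner libraries to the left of the line and 4 control libraries to the right, and genes ordered by their difference. The upper rows are blue in runners and red in controls, most of all in O1ex and O2ex, and toward the foot the groups mix, with Klf6 at the foot lowest in the controls Oc1 and Oc2 (-0.73 and -0.40).

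Just short of the threshold, 11 further named genes had lower values in every runner than in every control. Socs3, which blocks signalling of the interleukin 6 receptor family, had 19099, 20988, 23630.5 and 24579 normalised reads in runners and 35824, 34846, 40022 and 41685 in controls. The groups were tight and apart (difference -0.78, SE 0.13, limma adjusted p = 0.0556, and 0.0264 without Oc1). Dnajb1, a cochaperone of HSP70, had 4573, 3709, 8077 and 10170.4 normalised reads in runners and 24037, 41178, 18796 and 18592 in controls. Its groups were also apart, with a wide spread in runners (difference -1.91, SE 0.33, limma adjusted p = 0.0566). Ddit3, the CHOP transcription factor of endoplasmic reticulum stress, differed by -1.67 (limma adjusted p = 0.0888) and Dnajb9, a chaperone of the same compartment, by -0.83 (limma adjusted p = 0.0583). Txnip, which binds thioredoxin and limits glucose uptake, differed by -0.86 (limma adjusted p = 0.0639), and Nmrk2, a muscle kinase of NAD synthesis, by -1.06 (limma adjusted p = 0.0669). G0s2, an inhibitor of the fat lipase ATGL, differed by -1.15 (limma adjusted p = 0.0578). Pim3, Ftl1, Pdcd10 and Chrac1 differed by -0.57 to -0.82, with limma adjusted p between 0.0639 and 0.0888. Sat1, the enzyme that acetylates polyamines for breakdown, had 1215, 6009, 8751 and 1779 normalised reads in runners and 13235, 12428, 17633 and 14600.4 in controls. Its runners were scattered but all below the controls (difference -1.96, SE 0.47, limma adjusted p = 0.110).

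On the higher side 12 genes were just short of the threshold, and all 12 were apart between the groups. Plec encodes plectin, which ties desmin filaments to Z-discs and to the membrane. Its normalised reads were 10322, 9959, 10295 and 11764 in runners and 7232, 4845, 4588 and 4058 in controls. Runners were even and above all controls, of which Oc1 was the highest (difference 1.01, SE 0.17, limma adjusted p = 0.0556, and 1.17 with 0.00797 without Oc1). Flii, an actin-severing relative of gelsolin, differed by 0.76 (limma adjusted p = 0.0556), and Ap2a2, a subunit of the clathrin adaptor AP-2, by 0.90 (limma adjusted p = 0.0566). Tm9sf3 differed by 0.72 and Fam20b, a kinase of proteoglycan synthesis, by 0.94 (limma adjusted p = 0.0556 and 0.0559). Sbk1, Ubap2, Foxn3, Rc3h2, Calu, Sgms2 and Lynx1 differed by 0.61 to 1.15, with limma adjusted p between 0.0566 and 0.0777. Each of these 12 genes passed the threshold without Oc1, the only omission of a library that raised the number of calls. With any other library left out, 1 to 5 genes passed in all.

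Of 29 tested genes in the list of calcium-linked regulators (kinases, calcineurin, MEF2 and CAMTA), 27 were higher in runners and 2 passed (Hipk2 and Camta2). The 7 without overlap, all higher, were Camk2b, Ppp3cb, Rcan2, Camta2, Hipk1, Hipk2 and Sik3. They are 24.1% of the list, against 10.2% of all genes tested. Hipk1, Hipk2 and Sik3 encode kinases that do not themselves need calcium. The median difference of the list was 0.34, it was 0.45 with 6 called without Oc1, and 0.16 with the trend on exon length removed. Rcan2, a regulator of calcineurin, had 5736, 3854, 2937 and 5093 normalised reads in runners and 2335, 2064, 2026 and 2272 in controls. The controls were tight and all below the runners (difference 0.87, SE 0.18, limma adjusted p = 0.0888).

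Of 38 excitation coupling and calcium handling genes 29 were higher, none passed, and without Oc1 8 passed higher and 1 lower. The median difference was 0.27. Cacna1s, the voltage sensor of the transverse tubule, had 19476, 30608, 26045 and 35422 normalised reads in runners and 25704, 4547, 6716 and 9905 in controls. Oc1 alone lay among the runners, and the difference was 1.49 (SE 0.42, limma adjusted p = 0.142) with it and 1.95 (limma adjusted p = 0.0152) without it. Jph2, which holds the tubule to the reticulum, differed by 0.91 and by 1.14 without Oc1 (limma adjusted p = 0.121 and 0.0196). Srl, a calcium-binding protein of the reticulum, differed by 0.70 and by 0.84 without Oc1 (limma adjusted p = 0.116 and 0.0277). Calm2, a calmodulin gene, ran the other way, by -0.63 (limma adjusted p = 0.105, and 0.0332 without Oc1).

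The contractile genes had no call with all 8 libraries. Myh2, the myosin of oxidative fast fibres, had the largest difference of any gene whose groups did not overlap and whose mean was at least 100 normalised reads. Its normalised reads were 18152, 2456, 2225 and 3551 in runners and 1250.2, 269, 23.1 and 1845 in controls. O1ex alone was far above the other runners, and the difference of 2.43 (SE 0.72) had a limma adjusted p of 0.151. Myh1 had 156835, 173823, 171191 and 205566 normalised reads in runners and 92637, 76682, 35658 and 103868 in controls. The groups were apart (difference 1.29, SE 0.29, limma adjusted p = 0.102, and 0.0423 without Oc1). Myh4, of the fastest fibres, had 936259.5, 1296379, 1134568 and 1377959 normalised reads in runners and 1286539, 576629, 686495 and 421873 in controls. Oc1 lay within the range of the runners (difference 0.79, SE 0.32, limma adjusted p = 0.235, and 1.09 with 0.0568 without Oc1). Actn3, the alpha-actinin of fast Z-discs, differed by 0.81 without overlap (limma adjusted p = 0.125, and 0.0332 without Oc1). In all, 11 of 14 fast fibre genes (median 0.14, and -0.03 without Oc4) and 7 of 9 slow and oxidative fibre genes (median 0.36) were higher in runners. Of 37 genes of the giant sarcomere proteins, Z-disc and M-band 27 were higher (median 0.16), and 4 of them did not overlap, which is 10.8% against 10.2% of all genes tested.

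Because a few muscle transcripts take much of each library, the change in share of reads was listed too, as a description with no test. The largest rises were in Atp2a1, the calcium pump of fast fibres (4.48% ± 0.387 in runners against 3.37% ± 0.585 in controls, SD, n = 4), and in Myh4 (2.60% ± 0.495 against 1.73% ± 0.827). Acta1, Actn3, Aldoa, Myh1, Xirp1 and Mybpc2 followed, with gains of 0.442 to 0.15 percentage points. The largest declines were in Tnnt3, fast troponin T (2.15% ± 0.130 against 2.49% ± 0.356), and in Fos (0.0941% ± 0.0292 against 0.250% ± 0.0328). Ckm, Junb, Eno3, Slc25a4, Myl1 and Egr1 came after them, with changes of -0.114 to -0.0965 points. Of these 16 genes Fos alone was past the threshold. Ckm, Eno3 and Myl1 fell in share, but on the deposited log2 scale they differed by only -0.01, -0.01 and 0.01.

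In signalling of interleukin 1 and NF-kB, 18 of 30 tested genes were higher, and only Il1r1 passed, whose direction the filter fixed. The median difference was 0.06 (-0.02 without Oc2 and -0.01 with the length trend removed). Map3k7, the kinase TAK1 that acts below the receptor, had 2992, 4108, 3828 and 4634 normalised reads in runners and 2680.2, 2159, 2241 and 2432 in controls, without overlap (difference 0.62, SE 0.14, limma adjusted p = 0.108). Of 24 genes of the interleukin 6 receptor family and STAT3, 18 were higher and none passed. Lifr, the receptor of leukaemia inhibitory factor, differed by 0.56 (limma adjusted p = 0.151). Among 23 interferon-inducible and antigen presentation genes 11 were higher and 12 lower (median -0.01), and of 23 chemokines and muscle cytokines 16 were higher (median 0.31), with no call in either list.

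Growth pathways gave a single call. Of 36 genes of mTORC1 and its brakes 21 were higher (median 0.08), and Tsc2 was the one that passed. Prkaa1 and Prkaa2, catalytic subunits of AMP-activated kinase, differed by 0.72 and 1.04 (limma adjusted p = 0.136 and 0.162), and Lamtor3, part of the lysosomal anchor of mTORC1, by -0.50 (limma adjusted p = 0.113). Of 25 insulin and IGF genes 18 were higher (median 0.25, and 0.10 without Oc2 or with the length trend removed). Igfbp5, an IGF-binding protein, had 6749, 8826, 9733 and 11071 normalised reads in runners and 10125, 2979.9, 3357 and 2924 in controls. Oc1 alone stood among the runners, and the difference was 1.03 with it (limma adjusted p = 0.169) and 1.43 without it (limma adjusted p = 0.00797). In the TGF-beta, myostatin and SMAD list 21 of 28 genes were higher (median 0.36, and 0.20 without Oc2). Ski, a repressor of SMAD signalling, had 2465, 1832, 2363 and 1957 normalised reads in runners and 688, 231, 1086 and 1006 in controls, without overlap (difference 1.27, SE 0.27, limma adjusted p = 0.0888).

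Genes of the neuromuscular junction were higher in 19 of 25 cases, 5 of them without overlap and all higher (median 0.20). Over all genes tested, 10.2% were without overlap, and 5140 of 9379 were higher. Musk, the kinase that clusters acetylcholine receptors, had 1091, 1714, 1354 and 1650.4 normalised reads in runners and 406, 686, 482 and 801 in controls. The groups were apart (difference 0.95, SE 0.18, limma adjusted p = 0.0777, and 0.0370 without Oc1). Ache, acetylcholinesterase, differed by 0.51 (limma adjusted p = 0.176). Among 27 myogenic factors 19 were higher (median 0.11). Myod1, the master factor of muscle, had 18416, 29088, 17764 and 16637 normalised reads in runners and 7392, 7924, 12695 and 15471 in controls, with O4ex just above Oc4 (difference 0.92, SE 0.25, limma adjusted p = 0.135).

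Matrix and adhesion genes mostly had higher means in runners. Only 6 of 32 collagen chains in the table were tested, and Col20a1 passed. The filter on low values fixes part of their direction: Col20a1 reached its level in 4 runners and no control, and Col3a1 in 4 runners and 1 control. The 6 had a median of 0.68, which is therefore no support for a rise of collagens. Among all 32 chains listed, 27 were higher and 5 lower, where 11031 of all 19588 genes were higher. In the other lists 10 of 12 laminin and basement membrane genes were higher (median 0.42), and 31 of 34 integrin, adhesion and cytoskeleton genes were higher (median 0.26). Without Oc2 the medians of collagens and laminins were 0.43 and 0.18, and without O3ex that of collagens was 0.39. Dcn, the proteoglycan decorin, had 861, 586, 1112 and 975 normalised reads in runners and 94.5, 120, 585 and 105 in controls. The lowest runner, O2ex, was just above the highest control, Oc3, and the others were well apart (difference 1.28, SE 0.28, limma adjusted p = 0.0964). Gsn, gelsolin, differed by 1.43 without overlap (SE 0.32, limma adjusted p = 0.102). Dag1, dystroglycan, differed by 0.62 (limma adjusted p = 0.164, and 0.0421 without Oc1). Dcn and Gsn also mark fibro-adipogenic cells, the resident fibroblasts of muscle. Of 18 markers of those cells 16 were in the table and 5 were tested, with a median of 0.81 (1.39 without Oc3). Col3a1 is one of them and Ly6a reached the level of the filter in 3 runners and 1 control, so the filter fixes part of that median too. Of the 16 listed, 14 were higher and 2 lower. Their summed level ran from 3555 to 6248 normalised reads in runners and from 904 to 4020.4 in controls, and Clec3b was at 0 in at least 6 libraries. That level is at most 0.0148% of reads. Its part in the matrix results and in those of Il1r1 was not tested. In bulk RNA, fewer cells of a type and less RNA per cell cannot be told apart.

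Summed levels of markers of other cells overlapped between the groups, as did those of fibro-adipogenic cells. Of all listed members, 16 of 16 macrophage and leukocyte, 17 of 19 endothelial and 10 of 12 satellite cell markers were higher in runners. So were 10 of 12 mural, 9 of 10 tendon, 3 of 5 adipocyte and 4 of 5 red cell markers. For Schwann and nerve markers it was 5 of 13, and for all genes 11031 of 19588. The part of these cells in the other results was not tested. The summed level of 19 endothelial markers ran from 2238 to 11256 normalised reads in runners and from 1029 to 11769.6 in controls. That of 16 macrophage and leukocyte markers ran from 914 to 1890.2 and from 585 to 1350.2, with Ptprc, C1qc, Tyrobp, H2-Aa, Cd79a and S100a9 at 0 in at least 6 libraries. For 12 satellite cell markers the range was 231687 to 365495 against 208969 to 265847, nearly all of it Des, which fibres express, and Pax7 was at 0 in at least 6 libraries. Schwann and nerve markers ran from 4004 to 7343 in runners and from 6835 to 10828 in controls. Their list holds the early gene Egr2, and Sox10, Mag and Gfap were at 0 in at least 6 libraries. Mural markers overlapped between the groups and include Des, and tendon, adipocyte and red cell markers overlapped too. The tested members of these lists had medians from -0.04 (Schwann and nerve) to 0.54 (tendon and cartilage), and none passed with all 8 libraries.

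In metabolism, 31 of 39 genes of the citrate cycle and pyruvate entry were higher (median 0.12). Me1, malic enzyme, had 13805, 16422, 13683 and 16164 normalised reads in runners and 10339, 7584, 10462 and 8634 in controls. The groups were apart (difference 0.68, SE 0.14, limma adjusted p = 0.0888, and 0.0331 without Oc1). Of 44 genes of glycolysis, glycogen and glucose transport 29 were higher (median 0.11), among them Slc16a1, a lactate carrier, by 0.43 (limma adjusted p = 0.136). Fatty acid genes were split, 24 higher and 21 lower. Of 37 PGC-1 regulators and genes of mitochondrial fusion and import, 22 were higher and 15 lower (median 0.09), with 5 apart higher and 3 lower, which is 21.6% against 10.2% of all genes tested. Mfn2, mitofusin 2, had 47894, 40167, 34321 and 47102 normalised reads in runners and 30839, 21178, 20116 and 24189 in controls, without overlap (difference 0.81, SE 0.17, limma adjusted p = 0.0888, and 0.94 with 0.0222 without Oc1). Tomm20, a receptor of the outer membrane import pore, differed by -0.63 (limma adjusted p = 0.102).

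Subunits of the large complexes had medians below 0, but in no such list were the library medians of the groups apart, and O1ex lay among the controls. Of 82 cytosolic ribosomal proteins 67 were lower in runners and 17 were below every control in every runner, with a median of -0.16 and no call. The 17 are 20.7% of the list, against 10.2% of all genes tested. Rpl3, of the large subunit, had 209, 411, 506 and 232 normalised reads in runners and 949, 768, 659 and 678 in controls, which are apart (difference -0.75, SE 0.19, limma adjusted p = 0.113). Rpl3 overlaps several small RNA genes, and ribosomal proteins have many pseudogenes, so the split of reads among copies is uncertain. In mitochondrial ribosomal proteins 61 of 77 were lower (median -0.11), in proteasome subunits 27 of 35 (median -0.09, 7 apart and all lower), in complexes II to IV 20 of 28 (median -0.11), in ATP synthase 11 of 18 (median -0.14) and in complex I 24 of 37 (median -0.04). Psma5, of the proteasome core, differed by -0.52 (limma adjusted p = 0.110), Mrpl41 by -0.62 (limma adjusted p = 0.113) and Cox7b, of cytochrome oxidase, by -0.54 (limma adjusted p = 0.131). With the trend on exon length removed, the medians were -0.07 for cytosolic ribosomal proteins, -0.08 for mitochondrial ribosomal proteins, -0.05 for ATP synthase, -0.07 for the proteasome, 0.03 for complexes II to IV and 0.03 for complex I. In complex I the library medians were 0.28, -0.14, -0.24 and 0.01 in runners and 0.01, 0.30, -0.00 and -0.19 in controls, so that O1ex and Oc2 were high and O3ex and Oc4 low. The median of complex I was also above 0 without O3ex (0.02) and without Oc2 (0.05).

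Nuclear RNAs and splicing factors were lower in 37 of 43 cases, with 8 apart, all lower, 1 call (Rsrp1) and a median of -0.33. The 8 are 18.6% of the list, against 10.2% of all genes tested. Malat1, a long non-coding RNA of nuclear speckles, had 2517, 5902, 9807 and 3862 normalised reads in runners and 9275, 13243, 17008 and 18202 in controls. O3ex lay just above Oc1 and the other runners were below all controls (difference -1.44, SE 0.35, limma adjusted p = 0.110, and -1.63 with 0.0389 without Oc1). Srsf7, a splicing factor, differed by -0.78 (limma adjusted p = 0.117). The median deviation of the list was -0.45, 0.06, 0.18 and -0.41 in runners and 0.11, 0.14, 0.19 and 0.33 in controls, so that O2ex and O3ex were close to the controls and O1ex and O4ex were not. These genes are long (median exon length 7299 bases), and with the length trend removed the median was -0.50. Chromatin genes ran the other way, 35 of 50 higher with a median of 0.23, which became 0.02 with the length trend removed and 0.15 without O2ex. The clock output gene Dbp differed by -1.20 (limma adjusted p = 0.0989), and of 21 clock genes 10 were higher and 11 lower (median -0.16, 0.04 without Oc1, 0.02 without Oc4 and -0.01 without O1ex).

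**Figure D4:**
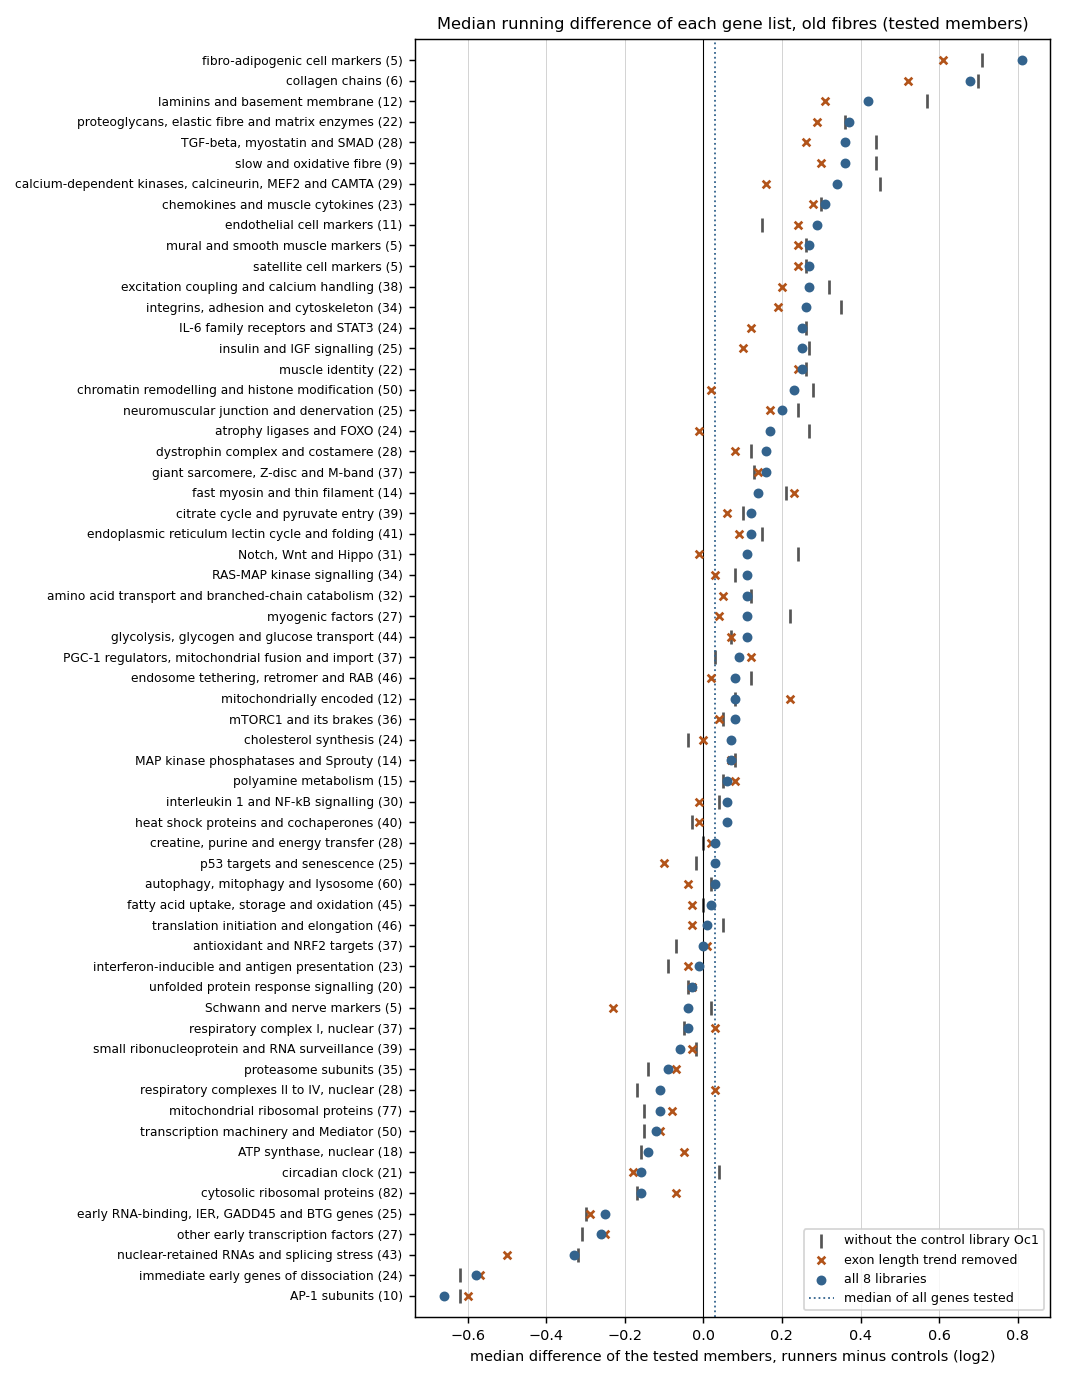
Median difference (horizontal axis, log2, runners minus controls) of the tested members of each gene list with at least 5 of them (number in brackets), for all 8 libraries (blue points), without Oc1 (grey bars) and with the exon length trend removed (orange crosses), beside the median of all tested genes (dotted line, 0.03). Nuclear RNAs and all early gene lists but MAP kinase phosphatases and Sprouty (0.07) lie lowest, from -0.66 to -0.25, and fibro-adipogenic markers and collagen chains highest, at 0.81 and 0.68. For fibro-adipogenic markers and collagen chains the filter on low values fixes part of the median.

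A survey of 71 gene families that share the leading letters of their symbols gave a picture beyond the lists, with no call in the 10 families at its ends. The highest medians belonged to Arhgap, GTPase-activating proteins (0.42, 14 of 18 higher), Usp, ubiquitin-specific proteases (0.24, 32 of 39), Arhgef, guanine nucleotide exchange factors (0.23, 11 of 13), Cep, centrosomal proteins (0.23, 20 of 25), and Zdhhc, palmitoyltransferases (0.18, 11 of 17). The lowest belonged to Smim, small integral membrane proteins (-0.21, 9 of 12 lower), Timm, of inner membrane import (-0.19, 11 of 14), Atg, of autophagy (-0.17, 11 of 17), and, with Nudt at the same rounded median, Rps and Rpl, of the small and large ribosomal subunits (-0.15, 30 of 40 and 36 of 44). The Atg genes without overlap, Atg7 and Atg9a, were both higher, and are 11.8% of the family, against 10.2% of all genes tested. In the wider list of autophagy, mitophagy and lysosome 33 of 60 genes were higher (median 0.03). With the length trend removed the medians were 0.26 for Arhgap, 0.18 for Zdhhc and 0.05 for Usp, Arhgef and Cep. On the low side they were -0.15 for Smim, -0.17 for Timm, -0.13 for Atg, -0.06 for Rpl and -0.07 for Rps.

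The difference between runners and controls moved with the length of the gene's exons. Over 9216 tested genes with a length, Spearman's rank correlation between difference and exon length was 0.338 across genes, which share libraries and are not independent, and 0.372 without Oc1. In 5 bins of near equal size, from the shortest genes to the longest, the median difference was -0.10, -0.02, 0.06, 0.11 and 0.19. Among the shortest (57 to 2493 bases) 13 genes were apart higher and 212 lower, and among the longest (7732 to 123179 bases) 135 higher and 20 lower. The trend was not the same in every library. The median of the longest minus that of the shortest bin was -0.13, 0.25, 0.32 and 0.18 in runners and 0.06, -0.37, -0.21 and 0.02 in controls. O1ex thus lay among the controls. With a smooth trend on exon length removed from each library, 2 genes passed, Zfp36 (difference -1.46, limma adjusted p = 0.00517) and Ier2 (-1.05, limma adjusted p = 0.0481). The other 10 called genes then had limma adjusted p of 0.0752 or above.

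**Figure D5:**
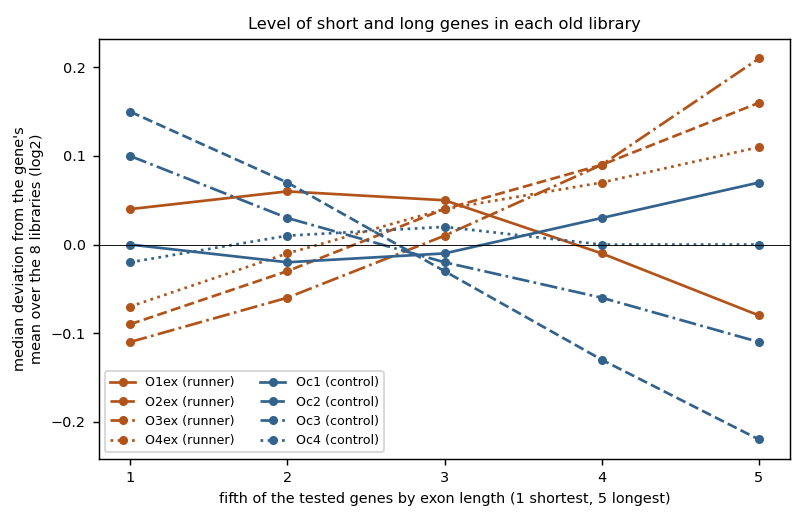
Median deviation from the gene's mean over the 8 libraries (vertical axis, log2) by bin of exon length (horizontal axis, 1 shortest and 5 longest), with 1 line per library, runners in orange and controls in blue. O2ex, O3ex and O4ex rise with length, Oc2 and Oc3 decline, Oc1 and Oc4 stay near flat, and O1ex declines.

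The effect of running in old fibres was set against that in young fibres, the most similar comparison of the series. In 9346 genes tested at both ages, 0 genes (0%) differed in their running effect by the limma interaction, with the smallest adjusted p at 0.546, and voom on recovered reads also called 0. At an unadjusted p under 0.05 there were 585 by limma and 588 by voom, where 5% is 467. No call above is thus shown to belong to old age alone. Without Y4ex or Yc4 the limma count was 1 and 5. Rsrp1 differed by -1.67 in old and by -2.05 in young fibres, and Zfp36 by -1.45 and -1.49. Vps8 differed by 1.18 in old and 0.08 in young fibres (unadjusted p of the interaction 0.0172, adjusted 0.717), and Ier2 by -1.17 and -0.42 (unadjusted 0.0140, adjusted 0.717). Dcn and Gsn differed by 1.28 and 1.43 in old and by 3.25 and 3.39 in young fibres, without passing (unadjusted p of the interaction 0.00145 and 0.00538, adjusted 0.546 and 0.687). The list medians were -0.58 in old and -0.12 in young fibres for dissociation genes, -0.66 and -0.22 for AP-1, and -0.33 and -0.54 for nuclear RNAs. They were 0.34 and 0.19 for calcium-linked regulators and 0.81 and 2.68 for fibro-adipogenic markers. The last pair covers only the 5 markers tested in old fibres, and the filter on low values fixes part of the old median. It is therefore no support for a difference between ages. The deposited values of the ages lie on separate scales with other lowest values (7.69 and 6.73), which compress low genes differently.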

How the data were processed

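RNA was measured by bulk RNA-seq after SMART-Seq v4 amplification, per the labels' protocols. Per the submitters' processing notes, the authors used DESeq2, STAR, featureCounts (Subread) and Trim Galore with the build mm10. Versions of these tools, and the annotation used, are not given in the sources used here. What was deposited are log2 values that behave as a variance-stabilising transformation of counts. Inverting this gave whole reads (within 0.02) for 100% of values, used for depth and normalised reads. Runner columns O1ex to O3ex match titles, and O4ex and the controls were matched to their group only. Values were tested with limma 3.58.1 in R 4.3.3 (eBayes with trend, 2-sided, Benjamini-Hochberg over all tested genes, threshold 0.05). Python 3.11.15 made the summaries. Depth was 30.7 to 67.4 M reads per old library, and no molecular identifiers are named that would mark PCR copies. Exon lengths and overlaps came from GENCODE M21.

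Genes, lists and rules were chosen with earlier results of these data known. Named genes are those past the threshold, the 12 next smallest p per direction, the 8 largest differences without overlap per direction (mean of at least 100 normalised reads), the 8 largest changes in share of reads per direction and up to 3 members of each list by p, without predicted genes. Families had at least 12 tested members. Alternatives changed the filter, the normalisation, the variance model, the unit (voom), the exon length trend (lowess span 0.3) and the libraries. The procedure was tested on simulated counts that held no outlying library and no exon length trend, so that test does not cover these features of the data.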

Additional observations from a re-analysis of the deposited data

Results flagged for a closer look

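Among 32 groups of 4 values examined for a single distant library (the 12 called genes and 4 measures of depth and composition, in runners and in controls), 1 was marked, and chance marks about 1 in 20. For Fos in old controls, Oc2 had a deposited value of 17.01, and its gap to the nearest control was 0.988 of the range of the group, because the other 3 controls were nearly equal. Without Oc2 the difference of Fos was -1.23 and did not pass the threshold.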

How the results depend on the processing

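In the titles runners and controls share no replicate number, but the deposited columns carry the numbers 1 to 4 in both groups. A fit with that number as a replicate block, added after seeing the data, called 0 genes (1422 at an unadjusted p under 0.05) and left each of the 12 at an adjusted p of 0.149 in limma. Same-numbered libraries had correlations of their deviations of -0.143, -0.127, 0.119 and -0.114, and no runner correlated best with the control of its own number, so the libraries were not treated as pairs. The 12 calls became 7 with no filter, 27 with a filter of 2 above the lowest value, 23 with median centring, 24 with quantile normalisation, 688 with library weights (508 higher and 180 lower), 4 without a variance trend, 3 with voom on recovered reads and 2 with the exon length trend removed. Leaving out 1 library gave 1 to 295 calls. The cause of these shifts was not tested. Genes without overlap numbered 952, and 1082 to 1796 with a library left out, where fewer libraries make separation more frequent. The count for a difference between ages was 0, and 0 to 5 with a library left out (1 without Y4ex and 5 without Yc4). None of the 206 differences of the called genes under other settings changed sign. Zfp36 passed under 17 of 18 alternatives, all but that block, and Ier2 under 13 of 18. Of 671 list medians under other settings 37 moved by more than the spread between libraries and 45 changed sign, in 18 of 61 lists, none of which were among the early gene, calcium-linked, matrix or ribosomal lists. Low genes such as Il1r1 and Col20a1 are limited by few reads in controls: their differences were 1.37 and 1.08 on the deposited scale and 5.47 and 4.90 with voom.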
